A study of Mus musculus with 5 samples.

Results

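The genes described here encode complement components and their receptors, chosen by symbol from the listed genes: C1qa, C1qb, C1qc, C3, Cfb, Cfp, C3ar1 and C5ar1. All 8 were present among the 19726 symbols listed for each library. RNA had been profiled in samples labelled as CD4+ T cells from MC38 tumors (n = 2, replicates 2 and 3) and from spleen (n = 3, replicates 1, 2 and 3). All samples came from wild-type C57/Bl6j mice aged 7 weeks, and MC38 is a colon carcinoma line of the mouse that grows after transplantation. Each sample was 300000 cells, taken as total RNA. The labels do not say how the cells were isolated, or whether replicates came from separate mice or from pools. The p-values therefore rest on sample-to-sample spread that could be technical. Values are TPM, a length-corrected relative abundance of transcripts.

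Complement is a cascade of plasma proteins that coats targets for uptake, recruits leukocytes and can lyse membranes. The classical pathway starts when C1q binds antibody or altered surfaces, and the alternative pathway amplifies itself on deposited C3 with factor B and is stabilised by properdin. The fragments C3a and C5a act on G protein-coupled receptors of myeloid cells. The liver makes most plasma complement, whereas C1q comes mainly from macrophages and dendritic cells, and properdin from leukocytes.

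The libraries labelled CD4+ T cells differed in more than complement. The listed TPM came to 596116 and 569309 in tumor replicates 2 and 3 and lay between 268987 and 359532 in the spleen libraries. Across 12979 tested genes Pearson's r of log2(TPM + 1) was 0.988 between the tumor libraries, 0.970 to 0.987 between spleen libraries and 0.652 to 0.688 between tissues, across genes that are not independent replicates. Whereas 40.9% of all tested genes rose in tumor, all 16 genes of a macrophage and monocyte marker list did. Their summed level was 7139 and 7346 TPM in the tumor libraries, against 33.7 to 45.5 TPM in the spleen libraries, and none was at 0. Ly6c2, a surface antigen of inflammatory monocytes, had the highest tumor level of them, at 2284 and 2235 TPM. All 8 listed genes of an 11-gene T cell identity list fell, where 18.1% of all tested genes fell. The list summed to 261 and 205 TPM in tumor against 712 to 961 TPM in spleen. Cd4 stood at 26.8 and 27.2 TPM in tumor, against 97.7, 131 and 116 TPM in spleen replicates 1, 2 and 3, a fall that was not called with scaling on the T cell identity list itself. Cd3e, which encodes a CD3 chain of the T cell receptor, stood at 13.8 and 12.9 TPM in tumor, against 70.7, 114 and 73.3 TPM in spleen. In bulk RNA fewer cells of a type and less RNA per cell cannot be told apart. The part of the macrophage genes in the complement values below was not tested.

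Other cell types left less signal. The counts below stand beside 40.9% of all tested genes rising and 18.1% falling. Of 9 neutrophil genes 3 rose and 1 fell among 5 tested, with sums of 79.5 to 80.8 TPM in tumor and 16.5 to 22.5 TPM in spleen. Csf3r, a receptor that monocytes share, rose and made up most of the tumor sum at 53.1 and 57.8 TPM. Mmp8 also rose, at 12.4 and 8.20 TPM in tumor, against 0.256, 0.183 and 0.342 TPM in spleen. S100a9 rose as well, at 3.58 and 1.88 TPM in tumor, against 0.311, 0.668 and 0 TPM in spleen. Cxcr2 fell, and Camp was at 0 in both tumor libraries. Of 5 endothelial genes 2 rose among 3 tested, with sums of 89.9 to 99.3 TPM in tumor and 58.7 to 70.6 TPM in spleen. Pecam1, which leukocytes also express, held most of it and was not called. The endothelial genes that rose were Kdr, a VEGF receptor gene, which stood at 32.7 and 33.1 TPM in tumor, against 0.843, 0.453 and 0.654 TPM in spleen, and Cdh5, the gene of VE-cadherin, which stood at 1.88 and 2.13 TPM in tumor, against 0.573, 0.451 and 0.393 TPM in spleen. Kdr lay above the olfactory receptor level described below in both tumor libraries, and its part in the complement values was not tested. Of 7 dendritic cell genes 1 rose and 1 fell among 5 tested, with sums of 29.2 to 30.4 TPM in tumor and 49.3 to 58.5 TPM in spleen. Ccr7, which naive T cells share, held the largest part and fell. Xcr1 rose, at 5.82 and 5.54 TPM in tumor, against 1.61, 1.39 and 1.43 TPM in spleen. It lay below the olfactory receptor level in every library. Of 7 B cell genes 1 rose and 1 fell among 6 tested, at 18.8 to 20.04 TPM in tumor and 20.7 to 23.1 TPM in spleen. None of 4 tested fibroblast genes was called, with sums of 12.1 to 14.7 TPM in tumor and 10.4 to 19.99 TPM in spleen. Of 4 NK cell genes 1 fell among 2 tested, at 5.06 to 5.93 TPM in tumor and 10.1 to 12.9 TPM in spleen. No gene of the 6-gene epithelial list passed the filter, and its sum was 1.87 to 2.21 TPM in tumor, where MC38 cells would be sought, against 2.37 to 3.15 TPM in spleen.

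All 8 complement genes were far higher in tumor. At an adjusted p below 0.05 in limma, 8 of 8 rose, where 40.9% of all tested genes rose. Their median log2 change was 6.73, against 0.23 for all genes tested. For none of the 8 did tumor overlap spleen, as for 46.6% of all tested genes in that direction. Changes ran from 5.16 to 8.27 on the log2(TPM + 1) scale, and a called rise of at least 5 was found for 1.75% of tested genes. The filter asked for a mean of at least 1 TPM over the 5 libraries. Of the genes, 6 passed it through their tumor values alone, with a spleen mean below 1 TPM. With every listed gene tested, all 8 still rose, against 26.1% of all genes.

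**Figure D1:**
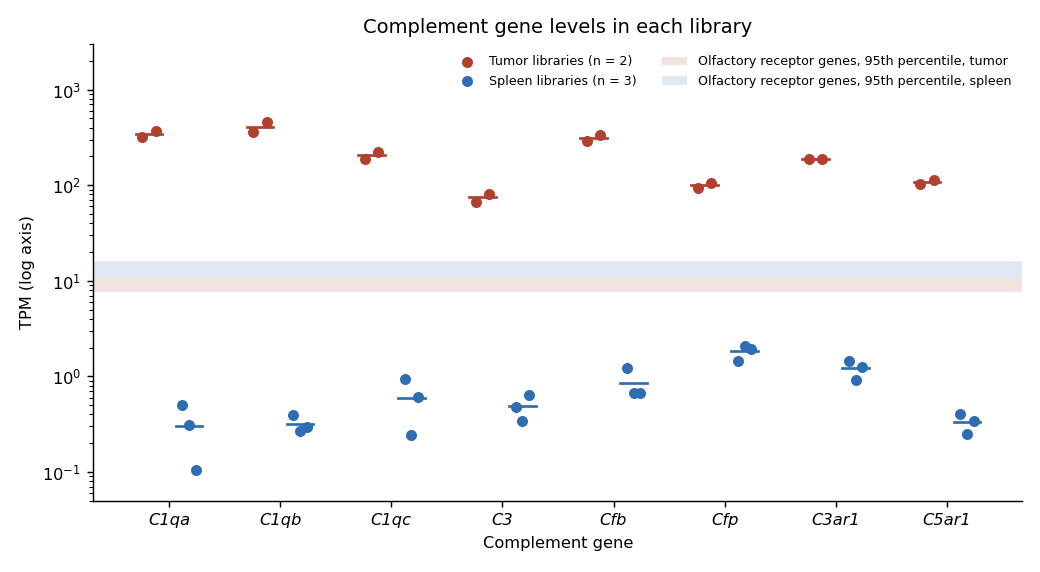
Level of each complement gene in each library, in TPM on a log axis; points are libraries, bars are group means, and bands span the 95th percentile of olfactory receptor genes over the libraries of each tissue. The tumor points sit between 67.3 and 454 TPM, above the bands, and the spleen points between 0.105 and 2.07 TPM, below them.

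A background level was taken from olfactory receptor genes, which have no known role in T cells. The 95th percentile of 1134 such genes was 7.59 and 10.7 TPM in the tumor libraries and 10.6 to 16.2 TPM in the spleen libraries. Their median was 0.321 and 0.441 TPM in tumor and 0.471 to 0.741 TPM in spleen. None of the 8 complement genes exceeded the 95th percentile in any spleen library, and all 8 exceeded it in both tumor libraries. A fold against spleen is thus a fold against values within the background. Set against the highest spleen 95th percentile instead, the lower tumor value was 4.15-fold higher for C3 and 22.4-fold higher for C1qb, the lowest and highest of the 8.

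Of the 8 genes C1qb and C1qa had the largest changes, followed by Cfb and then C1qc. C1qa, C1qb and C1qc encode the A, B and C chains, which assemble in equal numbers into the recognition molecule of the classical pathway. C1qb stood at 363 and 454 TPM in tumor replicates 2 and 3, against 0.391, 0.269 and 0.299 TPM in spleen replicates 1, 2 and 3. Its log2 change was 8.27 ± 0.21 (SE; limma adjusted p = 4.0e-35), the 20th largest rise of all tested genes, and it ranked 178 and 138 by level among listed genes in the tumor libraries. C1qa stood at 318 and 369 TPM in tumor, against 0.498, 0.309 and 0.105 TPM in spleen. The log2 change of C1qa was 8.05 ± 0.21 (limma adjusted p = 1.8e-34). C1qc stood at 189.6 and 225 TPM in tumor, against 0.941, 0.246 and 0.608 TPM in spleen, a log2 change of 7.04 ± 0.21 (limma adjusted p = 8.1e-32). Tumor replicate 3 was the higher tumor library and spleen replicate 1 the highest spleen library for each chain. Spleen replicates 2 and 3 kept no common order, and all spleen values lay within the background. C1qa averaged 343 ± 36.3 TPM in tumor and 0.304 ± 0.197 TPM in spleen (SD, n = 2 and n = 3, as for all means below). The mean of C1qb was 409 ± 64.7 TPM in tumor and 0.319 ± 0.0635 TPM in spleen, and that of C1qc was 207 ± 24.9 TPM in tumor and 0.598 ± 0.348 TPM in spleen.

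The proportions of the chains were close in the tumor libraries. C1qb made up 41.7% and 43.4% of the summed C1q TPM in tumor replicates 2 and 3, C1qa 36.5% and 35.2%, and C1qc 21.8% and 21.5%. In spleen the shares scattered, with C1qa at 27.2%, 37.5% and 10.4% and C1qc at 51.4%, 29.8% and 60.1% in replicates 1, 2 and 3. The spleen shares rest on sums of 0.823 to 1.83 TPM, within the background, and on 870 and 1048 TPM in tumor.

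**Figure D2:**
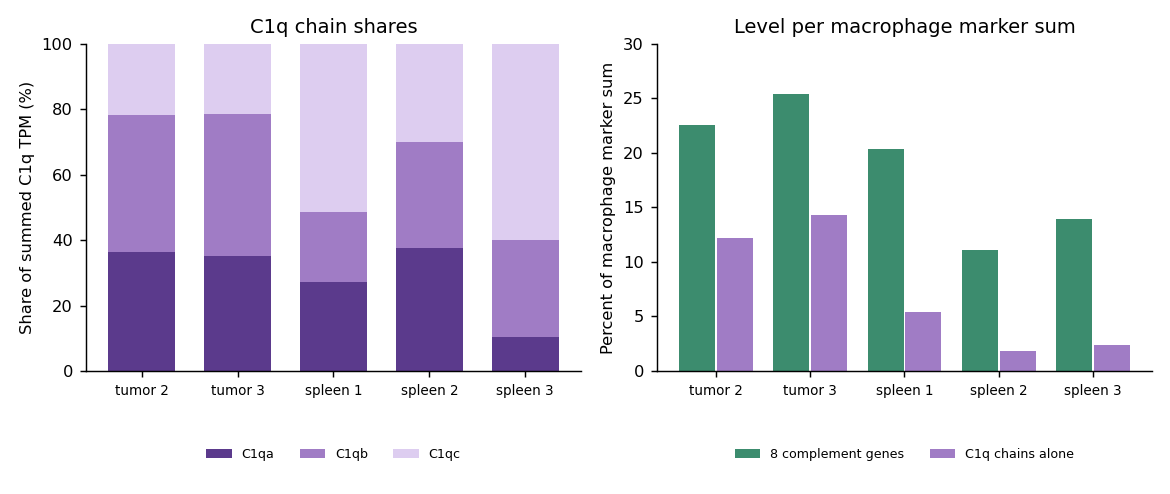
Left, share of each chain in the summed C1q TPM of each library, in percent; right, the summed level of the 8 complement genes and of the C1q chains alone as a percent of the macrophage marker sum of the same library. The tumor libraries share one composition, the spleen libraries differ among themselves, and the 8 genes reach 22.5% and 25.4% of the marker sum in tumor against 11.1% to 20.4% in spleen.

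The 3 genes lie side by side on the minus strand of chromosome 4 (GRCm38): C1qb at 136880129 to 136886187, C1qc at 136889804 to 136893065 and C1qa at 136895917 to 136898803. The gaps are 3616 and 2851 bases. Neither flanking listed gene had a called rise. Ephb2, an ephrin receptor gene 44140 bases beyond C1qb, stood at 1.78 and 2.87 TPM in tumor, against 4.59, 2.33 and 3.998 TPM in spleen, and was not called. Epha8, on the side of C1qa, stood below 0.1 TPM in every library and did not pass the filter. RefSeq start regions on GRCm38.p6 were at hand for 6 of the 8 genes, C1qb and C1qc among them, and not for C1qa and Cfb. Both runs are shown because the genes rose together. They are given 5′ to 3′ on the minus strand, upstream of the annotated start in both RefSeq and GENCODE, at chr4:136886201-136886450 and chr4:136893066-136893164. Capitals mark AGGAAGT on either strand, a core of sites for ETS factors such as PU.1, the myeloid factor; on the opposite strand it reads ACTTCCT.
C1qb: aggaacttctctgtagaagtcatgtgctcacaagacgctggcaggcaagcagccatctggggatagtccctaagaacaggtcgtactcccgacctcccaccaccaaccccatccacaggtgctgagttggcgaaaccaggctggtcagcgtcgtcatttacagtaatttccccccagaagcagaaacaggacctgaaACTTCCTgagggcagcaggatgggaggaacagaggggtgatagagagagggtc
C1qc: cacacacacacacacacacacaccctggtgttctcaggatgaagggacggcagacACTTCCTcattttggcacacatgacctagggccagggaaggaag
The match begins 53 bases before the RefSeq start of C1qb and 195 bases before that of C1qc, whose GENCODE start lies further upstream. Within 250 bases before the RefSeq start these letters were found in 3 of the 6 regions (C1qb, C1qc and C5ar1) and in 7.69% of 32851 regions of the same length. The matches of C5ar1, 190 and 72 bases before its RefSeq start, lie downstream of its GENCODE start. This motif and those below were chosen after the sequences were read, so the shares are no test of enrichment. All are matches of letters, and no binding was measured.

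The components of the alternative pathway rose as well. C3 encodes the central component of the cascade, whose cleavage yields C3a and the C3b that coats targets. It stood at 67.3 and 81.6 TPM in tumor replicates 2 and 3, against 0.480, 0.344 and 0.634 TPM in spleen replicates 1, 2 and 3. C3 rose by 5.66 ± 0.21 on the log2 scale (SE; limma adjusted p = 1.4e-28), with means of 74.4 ± 10.1 TPM in tumor and 0.486 ± 0.145 TPM in spleen. C3 was the lowest of the 8 in both tumor libraries. It lies on chromosome 17 at 57203970 to 57228136, on the minus strand. Both listed neighbours also rose, by log2 changes of 1.77 and 1.35. Tnfsf14, a TNF family ligand gene, stood at 14.1 and 13.0 TPM in tumor, against 2.78, 3.82 and 3.22 TPM in spleen, and Gpr108 at 16.9 and 21.6 TPM in tumor, against 5.80, 7.87 and 7.10 TPM in spleen.

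Cfb, which encodes factor B, the protease subunit of the alternative C3 convertase, stood at 288 and 333 TPM in tumor, against 1.22, 0.664 and 0.678 TPM in spleen. Its log2 change was 7.40 ± 0.21 (limma adjusted p = 5.4e-33), with means of 310 ± 32.2 TPM in tumor and 0.856 ± 0.320 TPM in spleen. Cfb stood at 4.27 and 4.08 times the TPM of C3 in the tumor libraries, and at 2.55, 1.93 and 1.07 times in the spleen libraries. Cfb lies on chromosome 17 at 34856374 to 34862518, on the minus strand, 85 bases from C2, its paralog in the classical pathway at 34862604 to 34898265. C2 stood at 5.49 and 5.39 TPM in tumor, against 4.34, 4.24 and 3.07 TPM in spleen, a difference that did not reach a call (0.41 ± 0.21 on the log2 scale, limma adjusted p = 0.088). The tissues did not overlap for C2, and its sign turned under 3 of the scalings (equal totals, upper quartile, and totals without the top 20 genes). Cfb was 52.4 and 61.9 times C2 in the tumor libraries and 0.282, 0.157 and 0.221 times C2 in the spleen libraries. The log2 ratio differed by 8.06 between tissues (exact permutation test, two-sided p = 0.2, adjusted p = 0.2 over 6 ratios). The smaller tail was doubled, and this is the smallest p that form gives with 2 against 3 libraries. C2 was named after its values were seen, so the test decides nothing. On the other side of Cfb, Nelfe ends next to it and rose by 1.46 on the log2 scale. Nelfe stood at 12.6 and 11.6 TPM in tumor, against 3.47, 4.38 and 3.44 TPM in spleen. C2 lay below the 95th percentile of olfactory receptor genes in every library, as did Cfb in spleen. The values of Cfb and C2, and so their ratio, are uncertain in a further respect. A readthrough gene model joining C2 and Cfb, Gm20547, covers 79.5% of the exonic bases of Cfb and 42.8% of those of C2. It is not among the listed symbols, and how reads were shared was not stated.

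Cfp encodes properdin, which stabilises the alternative convertase and is stored in granules of neutrophils. It stood at 93.1 and 106 TPM in tumor, against 1.45, 2.07 and 1.96 TPM in spleen, a log2 change of 5.16 ± 0.21 (limma adjusted p = 6.5e-27). The means were 99.7 ± 9.37 TPM in tumor and 1.83 ± 0.328 TPM in spleen, the highest spleen mean and the smallest reported change of the 8. The spleen values lay within the background, and with a pseudocount of 10 the change of C3 was smaller (3.00 against 3.21 for Cfp). Cfp lies on chromosome X at 20925454 to 20931555, on the minus strand. Of its listed neighbours, Elk1 was not called and stood at 4.93 and 5.15 TPM in tumor, against 3.61, 4.11 and 4.07 TPM in spleen, and Syn1, which did not pass the filter, at 0.922 and 1.05 TPM in tumor, against 1.03, 0.719 and 1.14 TPM in spleen.

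Both anaphylatoxin receptors rose. C3ar1, the receptor for C3a, stood at 188 and 186 TPM in tumor, against 1.47, 0.911 and 1.27 TPM in spleen. Its log2 change was 6.42 ± 0.21 (SE; limma adjusted p = 8.7e-31), with means of 187 ± 1.26 TPM in tumor and 1.21 ± 0.281 TPM in spleen. C3ar1 was the exception among the 8 in that tumor replicate 2 was the higher tumor library. C5ar1, the receptor through which C5a attracts neutrophils and monocytes, stood at 102 and 112 TPM in tumor, against 0.409, 0.248 and 0.343 TPM in spleen. Its log2 change was 6.34 ± 0.20 (limma adjusted p = 8.8e-31), with means of 107 ± 7.08 TPM in tumor and 0.333 ± 0.0808 TPM in spleen. In spleen C3ar1 was 3.59 to 3.69 times C5ar1, and in tumor 1.84 and 1.66 times, with the spleen values of both genes within the background.

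C5ar1 lies on chromosome 7 at 16246743 to 16259540, next to C5ar2, which encodes a second C5a receptor that does not couple to G proteins. C5ar2 stood at 11.01 and 13.6 TPM in tumor, against 2.62, 2.32 and 2.77 TPM in spleen, and rose by a log2 change of 1.89 ± 0.21 (limma adjusted p = 4.1e-11). C5ar1 was 9.28 and 8.27 times C5ar2 in tumor and 0.156, 0.107 and 0.124 times C5ar2 in spleen. That ratio differed by 6.11 on the log2 scale (exact permutation test, two-sided p = 0.2). This is again the smallest p with the tail doubled, so the test decides nothing. C3ar1 lies on chromosome 6 at 122847138 to 122856161. Its neighbour Foxj2, 1771 bases away, stood at 6.76 and 7.29 TPM in tumor, against 5.39, 6.26 and 6.45 TPM in spleen, and was not called. On the other side Necap1, 18312 bases away, rose by 2.25 on the log2 scale. Inafm1, on the far side of C5ar1 from C5ar2, stood at 1.97 and 1.61 TPM in tumor, against 1.49, 2.99 and 2.10 TPM in spleen, and was not called.

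The upstream regions of C3ar1 and C3 are shown for comparison with those of the C1q genes, on the minus strand at chr6:122856162-122856407 and chr17:57228137-57228386 (GRCm38.p6, RefSeq). In C3ar1 the capitals mark TGANTCA, the site of AP-1 factors, whose letters read the same on both strands. In C3 they mark TTGCNNAA, searched on both strands, a form of the C/EBP site.
C3ar1: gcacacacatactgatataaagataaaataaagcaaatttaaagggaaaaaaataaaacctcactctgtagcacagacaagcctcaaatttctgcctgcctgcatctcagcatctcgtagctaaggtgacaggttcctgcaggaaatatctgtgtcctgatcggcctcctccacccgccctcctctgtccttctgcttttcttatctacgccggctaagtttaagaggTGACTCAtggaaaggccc
C3: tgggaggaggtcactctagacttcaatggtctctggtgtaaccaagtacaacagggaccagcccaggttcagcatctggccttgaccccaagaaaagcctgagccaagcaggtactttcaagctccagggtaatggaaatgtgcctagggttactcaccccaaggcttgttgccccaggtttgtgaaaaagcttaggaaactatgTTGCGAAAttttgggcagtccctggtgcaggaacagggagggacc
The match begins 22 bases before the RefSeq start of C3ar1 and 45 bases before that of C3. TGANTCA was found in 1 of the 6 regions and in 6.75% of all, and TTGCNNAA in 1 of the 6 and in 9.56% of all. No match overlapped another, and Cfp held none of the 3 motifs searched.

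By level in tumor the order was C1qb, C1qa, Cfb, C1qc, C3ar1, C5ar1, Cfp and C3. The tumor libraries of neighbours overlapped between C1qb and C1qa, between C1qa and Cfb, and between C5ar1 and Cfp. The other neighbours were separate, although each rests on 2 libraries. The 8 genes together took 0.270% and 0.328% of the listed TPM in tumor, at 1608 and 1868 TPM, against 6.86, 5.06 and 5.89 TPM in spleen.

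Set against the macrophage marker sum of the same library, the 8 genes stood at 22.5% and 25.4% in tumor, against 20.4%, 11.1% and 14.0% in spleen replicates 1, 2 and 3. The C1q chains alone stood at 12.2% and 14.3% of it in tumor, against 5.43%, 1.81% and 2.40% in spleen. The tissues did not overlap in either ratio, and the log2 differences were 0.70 and 2.20 (exact permutation test, two-sided p = 0.2 for each). This is the smallest p with the tail doubled, so neither test decides anything. In spleen the complement values lay within the background. Of the marker sum, Ccr2 was the largest part there, at 9.50, 19.2 and 15.9 TPM in replicates 1, 2 and 3. Ccr2 exceeded the olfactory receptor 95th percentile in 2 of these 3 libraries, and the other markers in none.

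The profile nearest to the mean of the C1q chains over the 5 libraries was that of Msr1, a macrophage scavenger receptor gene. It was followed by Nlrp3, an inflammasome sensor gene, and Ifi207, an interferon-inducible gene. After each profile was centred, the root mean square difference from the C1q mean was 0.11, 0.15 and 0.17 on the log2(TPM + 1) scale, and 0.20 for Cfb. The chains themselves lay 0.16 (C1qa), 0.25 (C1qb) and 0.38 (C1qc) from that mean. Msr1, Nlrp3 and Ifi207 were higher in tumor replicate 2 than in tumor replicate 3, the reverse of each C1q chain. Msr1 stood at 452 and 440 TPM in tumor, against 1.17, 0.849 and 0.761 TPM in spleen. With 5 libraries in 2 tissues, such a likeness is mostly a likeness in the size of the change.

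Most of the remaining complement pathway genes were low in both tissues or not called. Of 45 other genes on the list 44 were listed in the files and 25 passed the filter, of which 8 rose, 3 fell and 14 were not called. The background was 40.9% of tested genes rising and 18.1% falling, and the median change of the 25 was 0.24 against 0.23 for all genes. Over all 44 without the filter, 8 rose and 3 fell, with a median of -0.09 against -0.03 for all listed genes. The split moved with the scaling: 7 rose and 10 fell with equal totals or on the upper quartile, 8 and 7 by median of ratios, 7 and 13 with totals that omit the top 20 genes, and 20 and 2 with scaling to T cell identity genes. Without spleen replicate 2, 10 rose and 5 fell.

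**Figure D3:**
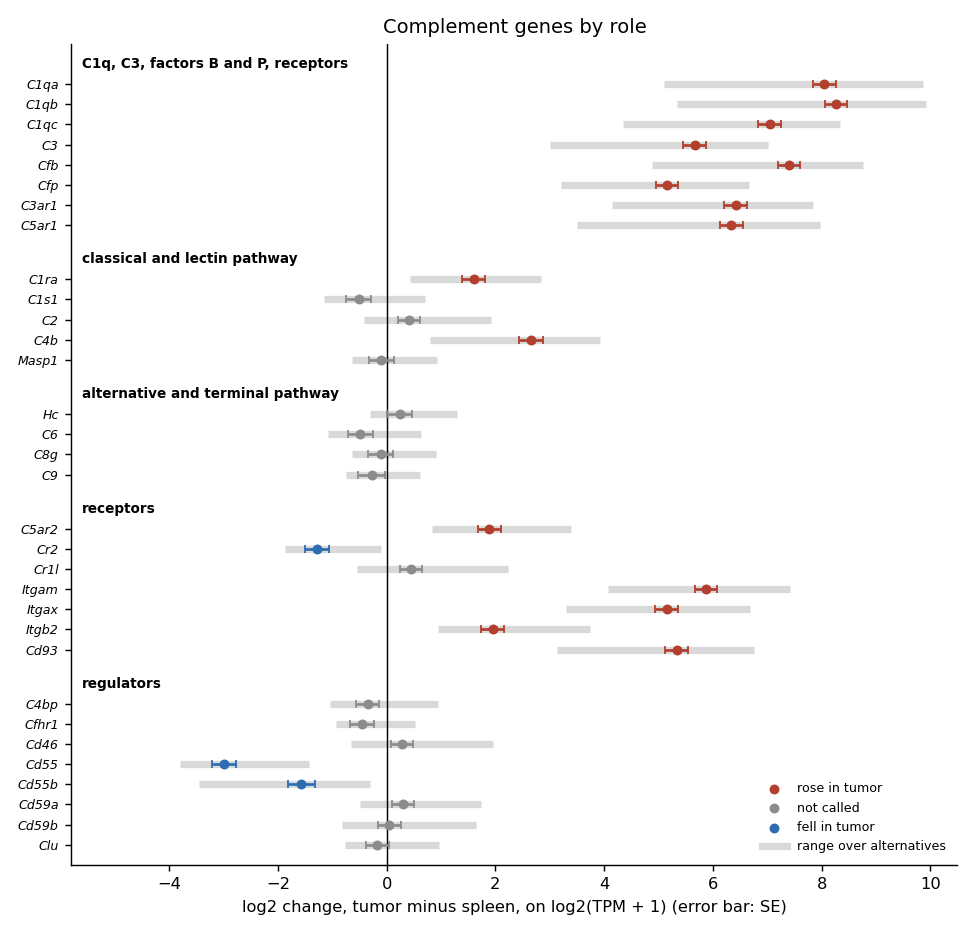
Change of tested complement genes, tumor minus spleen, on the log2(TPM + 1) scale, by role; points are estimates with their SE, colours give the call, and grey bars span the estimates over all alternatives. The 8 genes at the top lie between 5.16 and 8.27, and among the others Itgam, Cd93 and Itgax come nearest, at 5.87, 5.34 and 5.15.

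Of the remaining classical and lectin pathway genes, 2 of 5 tested rose and none fell. C4b, which encodes the C4 component cleaved by C1s, stood at 7.14 and 9.25 TPM in tumor, against 0.565, 0.271 and 0.542 TPM in spleen (log2 change 2.65 ± 0.22, limma adjusted p = 4.6e-15). C4b has a near-identical paralog, so its value is uncertain. C1ra, one of 2 near-identical genes for the protease C1r, stood at 4.73 and 4.58 TPM in tumor, against 1.10, 0.815 and 0.707 TPM in spleen (log2 change 1.60 ± 0.22, limma adjusted p = 1.1e-08). C1s1, the gene of the partner protease, stood at 1.85 and 1.31 TPM in tumor, against 3.01, 1.55 and 3.81 TPM in spleen, and was not called. All 3 genes lay below the 95th percentile of olfactory receptor genes in every library. None of 4 tested genes of the alternative and terminal pathway was called, and all 8 on that list lay below the same level in every library. Hc, the gene of C5, stood at 1.81 and 1.15 TPM in tumor, against 1.22, 0.677 and 1.39 TPM in spleen. Cfd, the gene of factor D that activates factor B, was at 0.154 TPM and 0 in tumor, against 0.324, 0.0949 and 0.129 TPM in spleen. C1s1, Hc and Cfd were named after their values were seen, as were C2, C5ar2, Itgb2, Itgax and Cr1l.

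Of 7 tested receptor genes on the list 5 rose and 1 fell. Itgam, the alpha chain of complement receptor 3 and itself a myeloid marker, stood at 192 and 203 TPM in tumor, against 2.95, 1.93 and 2.33 TPM in spleen (log2 change 5.87 ± 0.21, limma adjusted p = 4.3e-29). Itgax, the alpha chain of complement receptor 4, stood at 87.8 and 136 TPM in tumor, against 2.28, 2.16 and 1.88 TPM in spleen. Their shared beta chain Itgb2, which all leukocytes express, stood at 176 and 207 TPM in tumor, against 41.9, 55.4 and 49.5 TPM in spleen, and rose under every scaling. Cd93, a membrane protein of myeloid and endothelial cells once described as a C1q receptor, stood at 78.1 and 99.6 TPM in tumor, against 1.31, 1.13 and 1.20 TPM in spleen (log2 change 5.34 ± 0.21, limma adjusted p = 1.4e-27). Cr2, the complement receptor of B cells, fell to 0.965 and 0.942 TPM in tumor, against 3.43, 4.63 and 3.27 TPM in spleen (limma adjusted p = 1.4e-06). Scaling to T cell identity genes ended its call, and all its values lay within the background. The macrophage marker sum stood at 7139 and 7346 TPM in the same tumor libraries, and its part in the receptor values was not tested.

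Of 9 tested regulator genes 2 fell. Cd55, which encodes the membrane protein that speeds the decay of C3 convertases, fell to 2.81 and 2.51 TPM in tumor, against 23.0, 39.2 and 24.4 TPM in spleen. The log2 change of Cd55 was -2.99 ± 0.22 (limma adjusted p = 7.2e-17), negative and called under every setting. In spleen Cd55 lay above the olfactory receptor 95th percentile in all 3 libraries and in tumor in none. Its near-identical paralog Cd55b fell to 0 and 0.493 TPM in tumor, against 1.41, 4.004 and 2.98 TPM in spleen (limma adjusted p = 3.4e-07), and the split of reads between both genes is uncertain. Cr1l, a mouse regulator on the surface of most cells, was counted above on the receptor list. It stood at 62.9 and 67.1 TPM in tumor, against 43.7, 50.8 and 48.4 TPM in spleen. The difference of 0.44 ± 0.21 on the log2 scale did not reach a call (limma adjusted p = 0.061). Under 3 of the scalings (equal totals, upper quartile, and totals without the top 20 genes) Cr1l was called a fall, at -0.48, -0.36 and -0.55. Scaled on T cell identity genes it was called a rise, at 2.23. The sum of T cell identity genes was 261 and 205 TPM in the same tumor libraries, against 712 to 961 TPM in spleen. Its part in the regulator values was not tested.

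The rise of the 8 genes was called under all 17 alternatives, with an adjusted p of at most 7.1e-07. Their size depended on the pseudocount, since the spleen values were low. With a pseudocount of 10 the log2 changes ran from 3.00 for C3 to 5.33 for C1qb, and with 0.1 from 5.71 for Cfp to 9.93 for C1qb. Relative to the median of all genes, which scaling moved between -0.60 and 1.79, the 8 changes lay between 4.88 and 8.15 under each scaling.

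**Figure D4:**
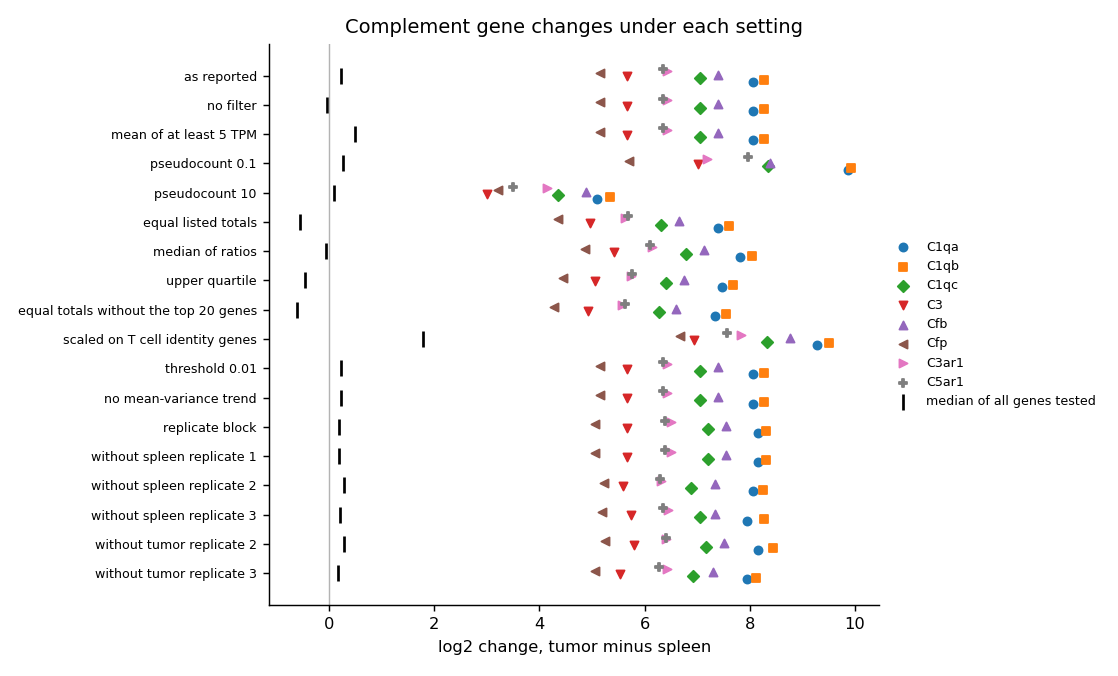
Change of each of the 8 complement genes, tumor minus spleen, on the log2 scale (horizontal axis) under the reported setting and each alternative (rows); black ticks mark the median of all genes tested. Every symbol lies to the right of the tick in its row, and the smallest change is 3.00, for C3 with a pseudocount of 10.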

How the data were processed

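Stranded, ribosomal RNA-depleted total RNA libraries were read as 75 bp pairs, according to the labels' protocols. The deposited values are taken as TPM, 1 per gene symbol and library, since they are not whole numbers and sum to less than the TPM total. Kallisto, DESeq2 and the build mm10 are named in the submitters' processing notes, with no role or version. The listed genes hold 26.9% to 59.6% of that total, so features not listed shift all genes together, and Lars2 alone takes 9.81% to 25.2% of the listed sum. TPM keep no read depth, so no counting interval is given.

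From these files log2(TPM + 1) was tested with limma 3.58.1 (R 4.3.3) over the 12979 genes averaging at least 1 TPM. Tissue was the only term, with a mean-variance trend, two-sided tests, Benjamini-Hochberg adjustment over all genes and calls at 0.05. There were 3 residual and 44.1 prior degrees of freedom. The same code was also run on simulated data with changes smaller than those of the 8 genes, so that run does not bear on their size. Coordinates are from GENCODE M21 (GRCm38). The members and gene lists were chosen with earlier results of these data known, and motifs after the sequences were read. Named genes were the 8 complement genes and the 2 largest called rises and falls of each role list. The highest marker of each cell type, Cd4, Cd3e and the 3 profiles nearest to C1q were also named. Any other called marker gene was named after its values were seen. Alternatives changed the filter, pseudocount, scaling, threshold, variance model, replicate block and each library in turn. One gene of the regulator list is counted but not reported here.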

Additional observations from a re-analysis of the deposited data

How the results depend on the processing

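The count of complement genes that rose was 8 under all 17 alternatives, and each member kept its call. Of the other complement pathway genes 8 rose and 3 fell as reported. Rises numbered 5 and falls 1 among 9 genes averaging at least 5 TPM, and 20 rose when scaled on T cell identity genes. Falls numbered 10 with equal totals, 10 on the upper quartile, 7 by median of ratios and 13 with totals that omit the top 20 genes. Leaving out 1 library gave 8 to 10 rises and 3 to 5 falls, the extremes being without spleen replicate 2. For all genes, 5309 rose and 2347 fell as reported. Rises numbered 2724 with equal totals, 3078 on the upper quartile, 2639 without the top 20 genes and 11802 on T cell identity genes. Falls in these settings numbered 6662, 6366, 7312 and 160, and 3920 by median of ratios, 1456 with a mean of at least 5 TPM and 1552 at a threshold of 0.01. Leaving out 1 library gave 4390 to 5842 rises and 1209 to 2623 falls, the fewest falls without tumor replicate 2. Scaling multiplies all TPM of a library alike, but on the log2(TPM + 1) scale genes of low level move less. The cause of the other shifts was not tested. T cell identity scaling turned the sign of Ccr7 to 0.38, Cd22 to 1.30, Col1a2 to 1.07, Pecam1 to 1.72 and Klre1 to 1.08. Pecam1 ran from -0.17 to 0.032 on leaving out 1 library, above 0 without spleen replicate 2 or tumor replicate 2. The 8 genes made up 24.0% of the macrophage marker sum on average in tumor, 28.9% with Lyz2 left out of that sum and 22.5% to 25.4% with 1 tumor library left out.

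With the replicate number as a block, in which spleen replicate 1 has no partner, 8 complement genes rose, 8 other pathway genes rose and 4 fell, and 4877 genes rose and 2013 fell in all. Nothing in the labels says that a number marks a shared mouse, so the samples were not paired. A lone tumor library, on leaving out the other, is taken to vary as spleen libraries do. The spleen values lie within the background, so precision there is limited, and levels in spleen below it could not be ranked.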

Other observations

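The C1q domain is shared by other secreted proteins. Among genes of related symbol none rose as far as the C1q chains, and C1q domain genes with other symbols were not examined. The group was chosen by symbol after the values of the C1q chains were seen. Of 14 listed genes whose symbols begin with C1ql, C1qtnf or C1qbp, 4 passed the filter, 2 rose and none fell, where 40.9% of all tested genes rose. C1qtnf12 stood at 8.78 and 7.62 TPM in tumor, against 1.5002, 2.33 and 2.36 TPM in spleen, and C1qtnf6 at 2.62 and 1.88 TPM in tumor, against 0.990, 1.32 and 0.555 TPM in spleen. The call of C1qtnf6 held under 10 of 16 alternatives. C1qbp, a mitochondrial protein gene named for C1q binding and not a C1q domain gene, stood at 15.4 and 17.3 TPM in tumor, with a spleen mean of 16.9 ± 2.83 TPM (SD, n = 3). It was not called. The genes that did not pass the filter were at 0.496 TPM or less in tumor.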
